A study of Arabidopsis thaliana with 10 samples.

Results

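A set of 40 listed loci of the core cell cycle machinery of Arabidopsis thaliana was followed: A, B and D cyclins, the cyclin-dependent kinases (CDKs) CDKA and CDKB, CDK inhibitors of the KRP and SIM/SMR families, and the transcription factors E2FA and E2FB. The 40 loci were chosen by locus name, through the accession that the array table gives for each probe. A probe was found for 39 of them, and all 39 were kept after dim probes were left out, among 22446 genes kept in all. They comprise 7 A cyclins, 9 B cyclins, 7 of 8 D cyclins, 5 CDKs, 7 KRP inhibitors, 2 SIM/SMR inhibitors and 2 E2F factors. CYCD5;1 had no probe matched to its locus and was not analysed here.

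Cyclins switch CDKs on, and the type of cyclin sets the stage: D cyclins act at entry into the cycle, A cyclins mainly during DNA replication and up to mitosis, and B cyclins at mitosis. CDKA;1 acts throughout the cycle, whereas the plant-specific CDKB kinases act around mitosis. KRP and SIM/SMR proteins bind and inhibit CDK complexes, and in leaves they are known for promoting the switch to endoreduplication, in which DNA is copied without division. E2FA and E2FB activate genes needed for replication and division, and are held in check by the retinoblastoma-related protein.

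RNA came from whole seedlings raised on sugar-containing agar in short days, and each RNA was hybridised to a 1-colour Agilent array. The double mutant LFYasEMF1/ult1-3, the single lines LFYasEMF1 and ult1-3, and wild type (WT) were each sampled at 15 and 7 days of age. Each of the 3 mutant genotypes had 1 array per age and WT had 2 per age, which gives 10 arrays in 8 groups. LFYasEMF1 carries an antisense copy of EMF1, a repressor of the floral programme, under the LFY promoter, so the antisense RNA is made only where that promoter is active. The allele ult1-3 is a mutation of ULT1, a trithorax-group gene, and the double mutant carries both. The labels do not say that WT replicates were grown separately, so the spread between them may not be that of separately grown plants, and it includes slide. P-values for age in WT alone and for differences in age change rest on that spread. In the fit over all 10 arrays, p-values also rest on differences in age change between genotypes, which that fit counts as residual spread. In whole seedlings, fewer dividing cells and less RNA per dividing cell cannot be told apart.

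Levels are log2 of the processed signal divided by its array's 75th percentile, called the scaled signal below. A level of 1 probe is not set against that of another. Between 70.3% and 78.4% of spots lay well above background, and the arrays' 75th percentiles lay between 3734 and 6014, lowest on the double mutant array at 7 days. The arrays lay on 3 slides. Slide 1 held both LFYasEMF1 arrays and WT replicate 1 at both ages, slide 2 held the 7-day arrays of the double mutant, ult1-3 and WT replicate 2, and slide 3 held the same at 15 days. LFYasEMF1 thus shared no slide with the double mutant or with ult1-3. ULT1 stood at -5.81 and -6.46 in the double mutant and at -2.76 and -2.33 in ult1-3, against -0.95 to -0.16 in WT. The lines that carry ult1-3 thus differed from each other in ULT1 signal on shared slides, and the cause was not tested. EMF1 was not lower in LFYasEMF1, at -0.49 and -1.71, against -3.07 to -1.29 in WT. Whole-seedling EMF1 signal does not check an antisense confined to the LFY domain. Of 7 floral organ genes in a marker list, 4 passed the test as higher in the double mutant than in WT, all 7 in LFYasEMF1 and 0 in ult1-3 (limma, with 2 at an unadjusted p under 0.05). AP1 and AP3 were not well above background on the 4 WT arrays. PI, which specifies petals and stamens and was above background on all 10 arrays, had 0.38 and -1.21 in the double mutant, 1.74 and 0.75 in LFYasEMF1 and -4.84 to -3.13 in WT. The floral genes thus moved with both genotypes that carry the antisense copy, and their part in the cell cycle values below was not tested. Evening clock genes had a median level, relative to each gene's own mean, of 1.16 to 2.74 on slide 1 and of -1.87 to -1.002 on slides 2 and 3. Between WT replicates of an age, all 6 morning clock genes were higher in replicate 2 and all 6 evening clock genes were lower. The median differences were 2.67 and -2.83 at 15 days and 4.84 and -3.92 at 7 days. Clock gene levels thus moved with slide, in WT too. Their part in the results below, the spread between WT replicates included, was not tested. Root and green leaf markers were well above background on all 10 arrays.

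No cyclin, CDK, inhibitor or E2F gene passed the test in any of the 10 comparisons (limma, adjusted p under 0.05 over all genes). The values below are therefore descriptions of levels, and a difference named as higher or lower is a measured difference that did not pass. All 39 genes were well above background on all 10 arrays, except CYCA2;1, which was at background in the double mutant and in ult1-3 at 7 days.

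**Figure D1:**
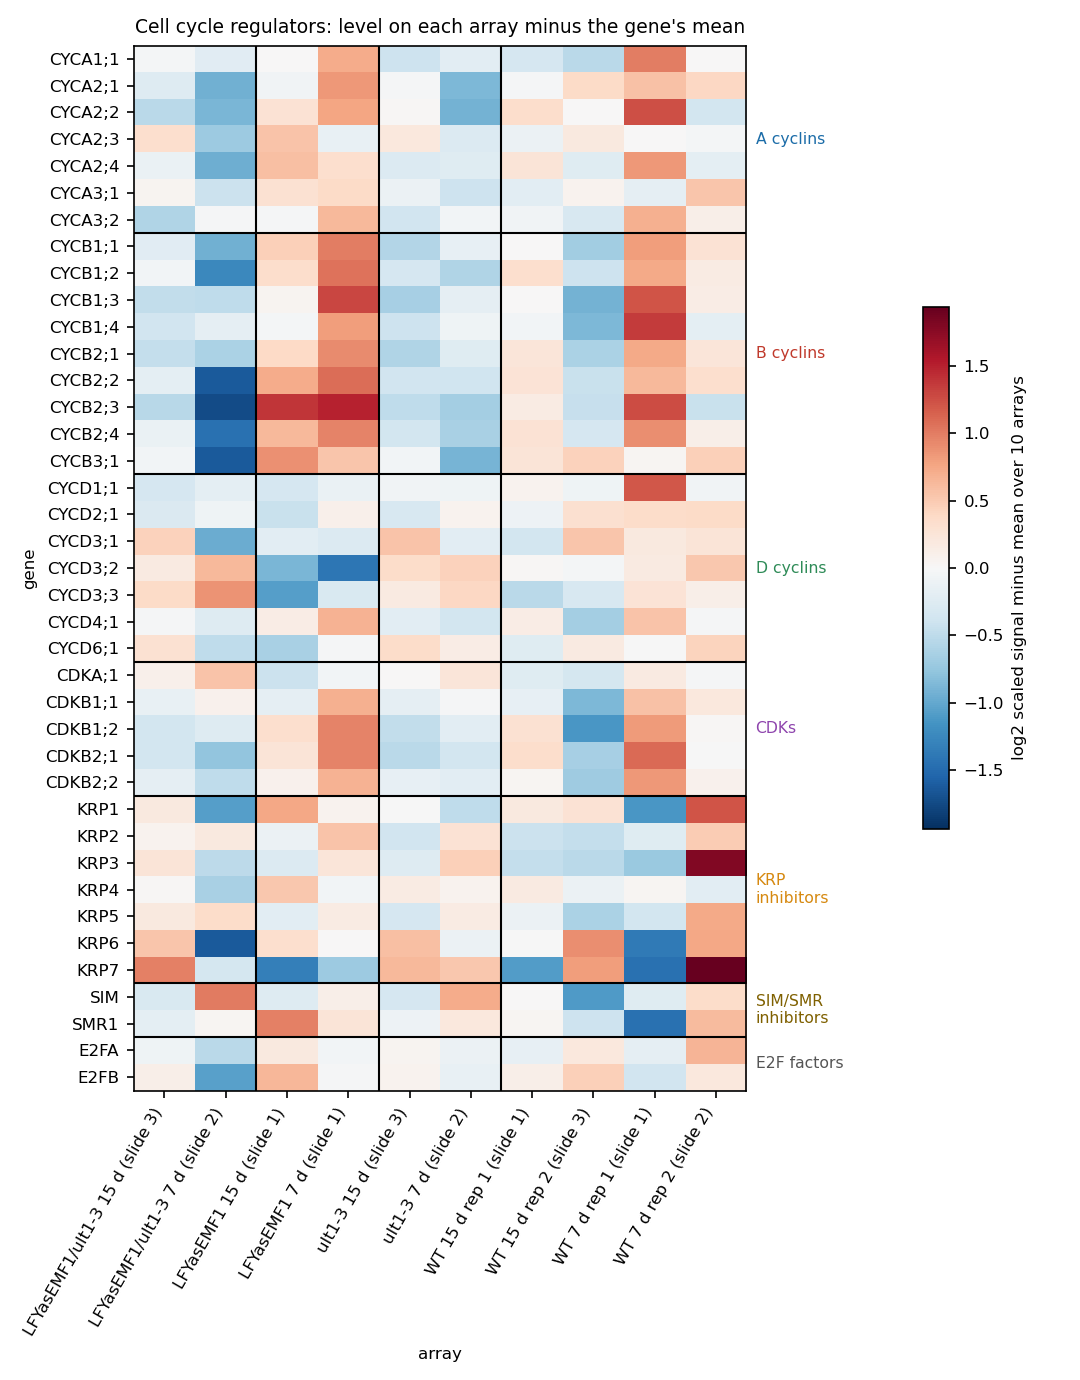
Colours give the log2 scaled signal of each of 39 cell cycle genes (rows, grouped by role) on each of 10 arrays (columns, with slide), minus the gene's mean over the arrays. Of the 9 B cyclin rows, 6 are lowest on the double mutant array at 7 days, and KRP3 and KRP7 are highest on WT replicate 2 at 7 days.

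B cyclins are the partners of CDKs at mitosis. All 9 were lower in the double mutant than in WT in the fit over both ages, with a median log2 change of -0.85 and a range of -1.28 to -0.33. All 9 were lower in ult1-3 than in WT (median -0.58), and all 9 were higher in LFYasEMF1 than in WT (median 0.55). None of these changes passed the test. WT replicate 2, on slides 2 and 3, was below WT replicate 1, on slide 1, for 8 of 9 B cyclins at each age. The median of that difference was -0.70 at 15 days and -0.58 at 7 days, as large in size as the median changes in ult1-3 and LFYasEMF1.

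CYCB2;3 (AT1G20610), a mitotic B cyclin, had levels of -3.09 at 15 days and -4.29 at 7 days in the double mutant. It had -1.18 and -1.07 in LFYasEMF1, -3.05 and -3.21 in ult1-3, and -2.39, -2.99, -1.30 and -2.98 in WT, listed as replicates 1 and 2 at 15 days and then at 7 days. Both LFYasEMF1 arrays lay above all WT arrays, and both double mutant arrays lay below them. All arrays of slides 2 and 3, WT replicate 2 included, also lay below all arrays of slide 1, so this order follows slide as well as genotype. The log2 change was -1.28 ± 0.54 (SE) for the double mutant against WT, with an adjusted p of 0.311 in limma, and 1.29 ± 0.54 for LFYasEMF1 against WT, with an adjusted p of 0.405. On the same slide, LFYasEMF1 differed from WT replicate 1 by 1.21 at 15 days and by 0.23 at 7 days. The double mutant there differed from WT replicate 2 by -0.10 at 15 days and by -1.31 at 7 days. In the fit, the double mutant differed from LFYasEMF1 by -2.57 ± 0.63, with an adjusted p of 0.107 in limma. With slide as a term this difference was -1.42 ± 0.55, and without WT replicate 1 at 7 days its adjusted p was 0.0455.

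CYCB2;2 (AT4G35620) had -2.17 and -3.61 in the double mutant at 15 and 7 days. It had -1.27 and -0.91 in LFYasEMF1, -2.35 and -2.37 in ult1-3, and -1.71, -2.41, -1.36 and -1.66 in WT in the same order. The 7-day double mutant array was lowest by more than 1 log2 unit, and its 15-day array lay inside the WT range. CYCB3;1 (AT1G16330), the only member of its cyclin subgroup, had -4.45 and -6.03 in the double mutant and -4.45 and -5.30 in ult1-3. It had -3.51 and -3.87 in LFYasEMF1 and -4.15, -3.95, -4.37 and -3.94 in WT. Both genotypes that carry ult1-3 lay below all WT arrays, and LFYasEMF1 lay above them. The log2 change of CYCB3;1 in the double mutant against WT was -1.14 ± 0.35, with an adjusted p of 0.219 in limma, and -1.29 ± 0.38 with slide as a term.

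Most B cyclins of the double mutant were lower than in WT replicate 2 on its 7-day array only. Against WT replicate 2 on the same slide, the median over the 9 B cyclins was 0.24 at 15 days, with 7 of 9 higher, and -1.31 at 7 days, with 8 of 9 lower. CYCB3;1 and CYCB2;3 were lower at 15 days too, with differences of -0.50 and -0.10. CYCB1;1, a widely used marker of cells entering mitosis, differed from WT replicate 2 by 0.45 at 15 days and by -1.21 at 7 days. CYCB1;2 differed by 0.35 at 15 days and by -1.40 at 7 days. CYCB1;4 differed least at 7 days, by 0.01. In ult1-3 the same-slide medians were 0.06 at 15 days and -0.47 at 7 days. In LFYasEMF1, set against WT replicate 1 on slide 1, they were 0.36 and 0.20. The double mutant array at 7 days had the lowest 75th percentile of signal and the lowest median of all arrays, and the part of that in these differences was not tested.

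**Figure D2:**
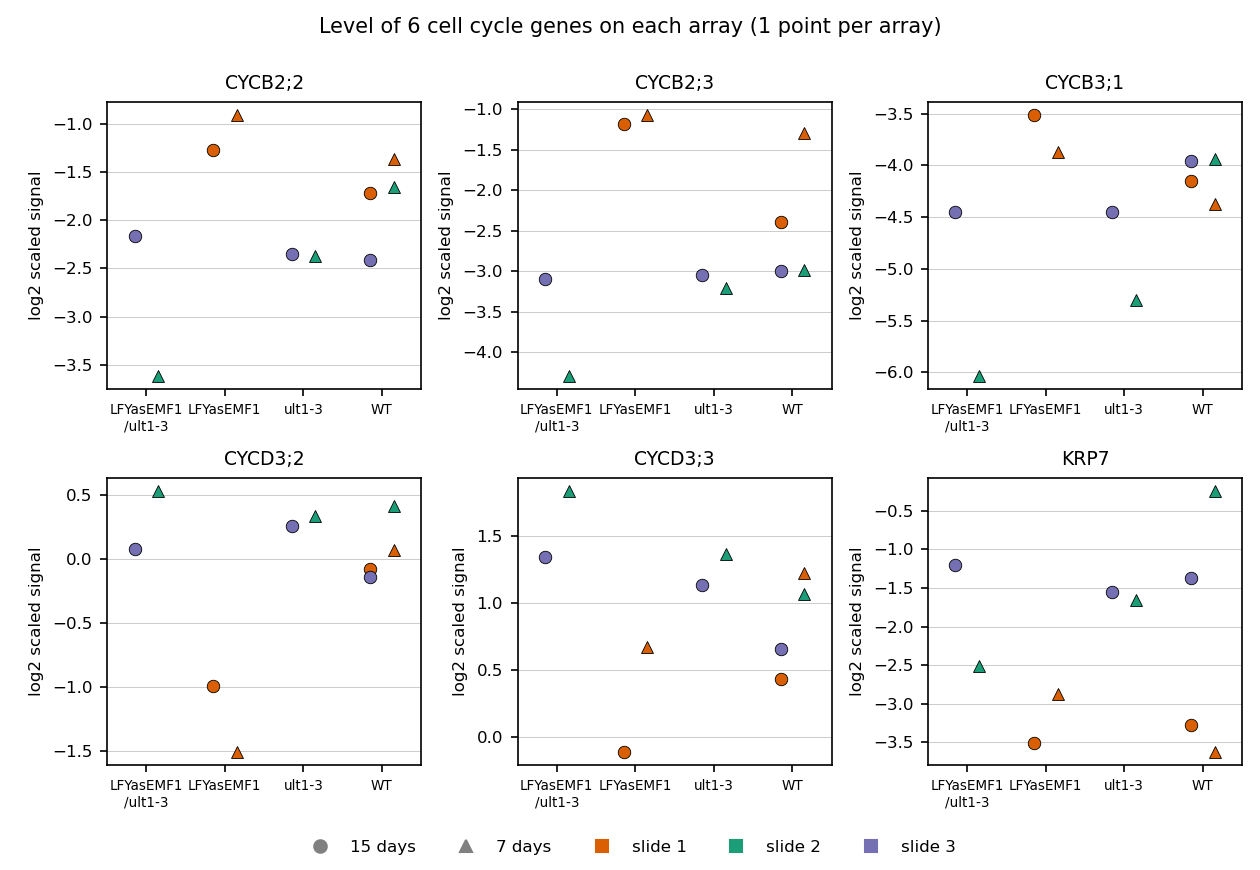
Points give the log2 scaled signal of 6 genes on each of the 10 arrays, by genotype, with circles for 15 days, triangles for 7 days and colour for the slide. CYCB2;2, CYCB2;3 and CYCB3;1 are lowest on the double mutant array at 7 days, and CYCD3;2 is lowest on both LFYasEMF1 arrays. CYCB2;3 and KRP7 each separate slide 1 from slides 2 and 3.

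A cyclins differed in the same directions in the fit over both ages. All 7 were lower in the double mutant than in WT (median -0.41), all 7 were lower in ult1-3 (median -0.34), and all 7 were higher in LFYasEMF1 (median 0.21). On the same slide these directions did not hold at every age. The double mutant minus WT replicate 2 had a median of -0.02 at 15 days, with 3 of 7 higher, and of -0.68 at 7 days, with 7 of 7 lower. For ult1-3 the medians were -0.03 at 15 days, with 3 of 7 higher, and -0.23 at 7 days, with 7 of 7 lower. LFYasEMF1 minus WT replicate 1 had a median of 0.33 at 15 days, with 5 of 7 higher, and of -0.15 at 7 days, with 5 of 7 lower. CYCA2;2 had the largest change in the double mutant, -1.02 ± 0.48 with an adjusted p of 0.353 in limma. It had -4.74 and -5.10 in the double mutant, against -3.87, -4.21, -2.97 and -4.57 in WT. WT replicate 2 minus replicate 1 at 7 days was -1.60, larger in size than the change itself. CYCA2;1 had a change of -0.92 in the double mutant, and 1 of its 2 arrays there was at background. CYCA1;1 and CYCA3;2 stayed within 0.48 of WT replicate 2 in the double mutant at both ages. CYCA2;3, which restrains endoreduplication, differed from WT replicate 2 by 0.14 at 15 days and by -0.68 at 7 days in the double mutant.

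D cyclins, which couple sugar and hormone signals to entry into the cycle, were mostly lower in LFYasEMF1, where B cyclins were higher. In LFYasEMF1, 6 of 7 were lower than in WT (median -0.42). In the double mutant 5 of 7 were lower than in WT, with a median of -0.19. The 3 CYCD3 genes, which sustain division in young leaves and respond to cytokinin, were all lower in LFYasEMF1 than in WT. Their changes were -0.39, -1.32 and -0.56 for CYCD3;1, CYCD3;2 and CYCD3;3. In the double mutant, CYCD3;2 and CYCD3;3 were higher than in WT replicate 2 at both ages, and CYCD3;1 was lower.

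CYCD3;2 (AT5G67260) had -0.996 and -1.51 in LFYasEMF1 at 15 and 7 days. It had 0.08 and 0.53 in the double mutant, 0.26 and 0.34 in ult1-3, and -0.08, -0.14, 0.07 and 0.42 in WT. Both LFYasEMF1 arrays lay well below all others, and the double mutant lay within or just above the WT range. The change was -1.32 ± 0.27 in LFYasEMF1 against WT, a 2.50-fold lower level, with an adjusted p of 0.0675 in limma. It was -1.25 ± 0.25 with slide as a term, and on slide 1 alone LFYasEMF1 differed from WT replicate 1 by -0.92 at 15 days and by -1.58 at 7 days. The double mutant was 1.56 ± 0.31 above LFYasEMF1, with an adjusted p of 0.072 in limma.

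CYCD3;3 (AT3G50070) had 1.34 and 1.84 in the double mutant and -0.11 and 0.67 in LFYasEMF1. It had 1.13 and 1.37 in ult1-3 and 0.43, 0.66, 1.23 and 1.07 in WT. The double mutant lay above all WT arrays, while LFYasEMF1 overlapped them. It differed from WT by 0.74 ± 0.22 in the double mutant, with an adjusted p of 0.208 in limma. It differed by 1.30 ± 0.26 between the double mutant and LFYasEMF1, with an adjusted p of 0.0676. CYCD3;1 differed from WT replicate 2 by -0.09 at 15 days and by -1.21 at 7 days in the double mutant. CYCD1;1 stood at 0.39 in WT replicate 1 at 7 days and between -1.14 and -0.74 on the other 9 arrays. CYCD6;1, known for formative divisions in the root, was lowest in LFYasEMF1 at 15 days, at -3.26, against -2.86 and -2.45 in WT at that age.

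Among the kinases, CDKA;1 had 0.98 and 1.44 in the double mutant, against 0.65, 0.55, 1.06 and 0.86 in WT, and was higher than both WT arrays of its age. It was 0.43 above WT replicate 2 at 15 days and 0.58 above it at 7 days. In the fit over both ages 3 of the 4 CDKB genes were lower in the double mutant than in WT, and CDKB1;1 differed by 0.04. CDKB1;2 had -2.22 and -2.11 in the double mutant, against -1.56, -2.99, -1.03 and -1.84 in WT, and lay inside the WT range at 15 days. CDKB2;2 had -1.84 and -2.16 in the double mutant, against -1.64, -2.36, -0.84 and -1.59 in WT. CDKB2;1 had -1.52 and -1.93 in the double mutant, against -0.82, -1.80, -0.05 and -1.16 in WT, a change of -0.77 ± 0.44 with an adjusted p of 0.424 in limma. At 15 days all 5 kinases were higher than in WT replicate 2 in the double mutant (median 0.52) and in ult1-3 (median 0.53). At 7 days 4 of 5 were lower in each of the 2 genotypes. WT replicate 2 was itself below WT replicate 1 for all 5 kinases at both ages, with a median difference of -0.72 at 15 days and -0.76 at 7 days.

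KRP inhibitors differed widely between WT arrays of the same age. KRP7 had -3.27 and -1.36 in WT replicates 1 and 2 at 15 days, and -3.62 and -0.24 at 7 days. It had -1.20 and -2.52 in the double mutant, -3.51 and -2.88 in LFYasEMF1, and -1.55 and -1.66 in ult1-3. The 4 arrays of slide 1 were lowest, and the 6 arrays of slides 2 and 3 were all higher. Its change in LFYasEMF1 against WT was -1.07 ± 0.94, and 0.25 ± 0.58 with slide as a term. At 7 days WT replicate 2 exceeded replicate 1 by 2.50 for KRP3, 2.35 for KRP1 and 2.12 for KRP6. On slide 2 the double mutant at 7 days differed from WT replicate 2 by -2.30 for KRP3, -2.28 for KRP1, -2.38 for KRP6 and -2.27 for KRP7. At 15 days the median difference over the 7 KRP genes was 0.16. On slide 1, LFYasEMF1 minus WT replicate 1 had a median of 0.30 at 15 days, with 5 of 7 KRP genes higher. At 7 days that median was 0.79, with 6 of 7 higher. KRP2 varied least among them, between -2.05 and -1.03. A second, dimmer KRP6 probe, above background on 5 arrays, gave -0.49 for ult1-3 against WT, where the probe used gave 0.16.

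SIM, which drives endoreduplication in trichomes, had 1.33 and 2.63 in the double mutant, 1.38 and 1.74 in LFYasEMF1, and 1.31 and 2.35 in ult1-3. It had 1.64, 0.53, 1.40 and 1.99 in WT. The 7-day double mutant array was the highest of the 10. SMR1, which acts in the formation of giant epidermal cells, had 1.53 and 0.81 in LFYasEMF1, against 0.59, 0.16, -0.89 and 1.16 in WT. Its change in LFYasEMF1 was 0.91 ± 0.53 with an adjusted p of 0.573 in limma, and 1.32 ± 0.30 with slide as a term. E2FB had -2.29 and -3.46 in the double mutant, against -2.29, -1.94, -2.78 and -2.20 in WT. E2FA differed from WT replicate 2 by -0.29 at 15 days and by -1.18 at 7 days in the double mutant.

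**Figure D3:**
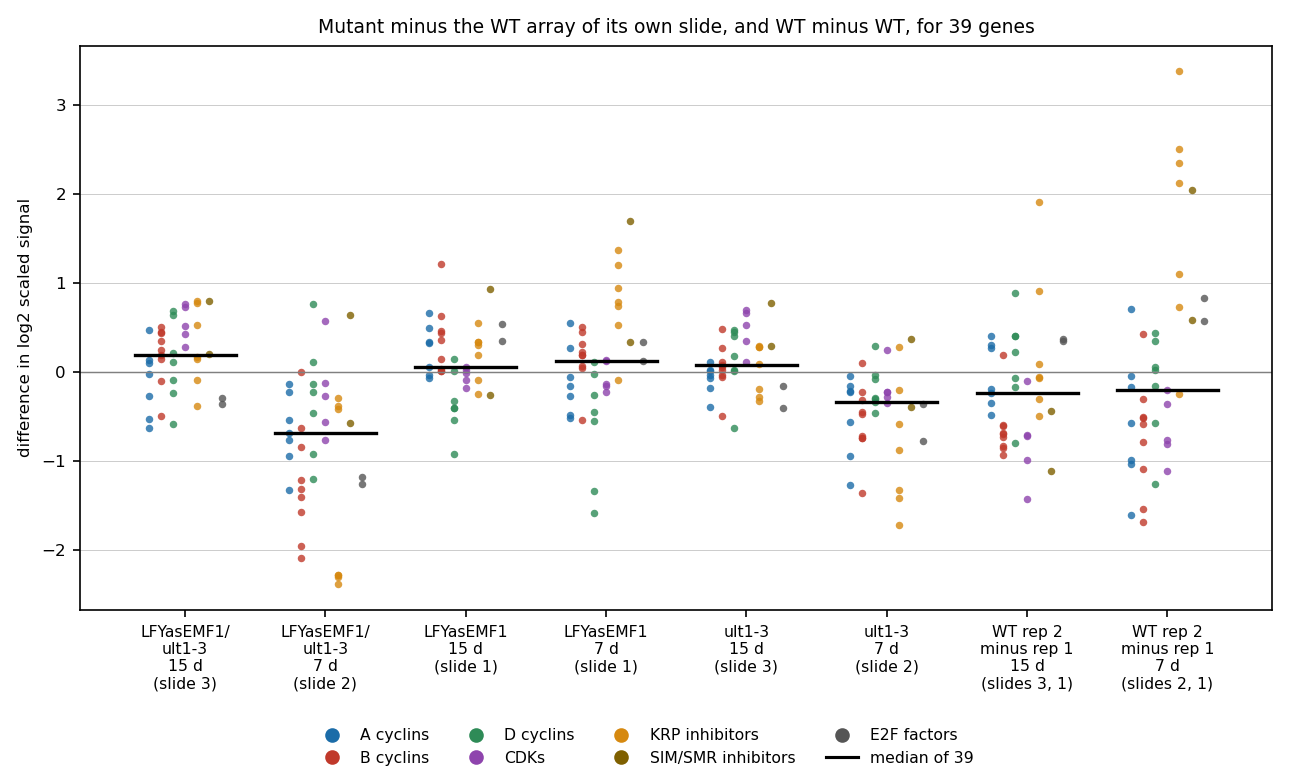
Each point is 1 of 39 genes, placed by the difference in log2 scaled signal between a mutant array and the WT array of its own slide, or between the WT replicates of an age, with colour for role and a black line at the median. The double mutant at 7 days has a median of -0.68 and the double mutant at 15 days one of 0.19, and the WT replicates at 7 days differ by up to 3.38.

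Counts over all 39 genes were read against the share of all genes. For the double mutant against WT, 0 of 39 passed the test, where 0.793% of all genes did, and 5 of 39 had an unadjusted p under 0.05, beside 15.8% of all genes. The median change was -0.41, with 30 of 39 lower, and it was -0.02 without the double mutant array at 7 days and -0.65 without that at 15 days. Arrays of the double mutant did not overlap those of WT for 6 of the 39, CYCD3;3 being higher and CYCA2;1, CYCA2;2, CYCB2;3, CYCB3;1 and CYCD1;1 lower, beside 9.14% of all genes higher and 6.62% lower. For LFYasEMF1 against WT, 0 of 39 passed, where 1.68% of all genes did, and 3 had an unadjusted p under 0.05, beside 11.9% of all genes. The median was 0.27, with 29 of 39 higher. Arrays did not overlap for 5 genes, CYCB2;2, CYCB2;3 and CYCB3;1 higher and CYCD1;1 and CYCD3;2 lower, beside 8.33% of all genes higher and 7.79% lower. For ult1-3 against WT, 0 of 39 passed, where 0.0624% of all genes did, and 0 had an unadjusted p under 0.05, beside 4.27% of all genes. The median was -0.30, with 26 of 39 lower. CYCB2;3, CYCB2;4 and CYCB3;1 lay below all WT arrays and no member above them, beside 4.33% of all genes lower and 5.38% higher. Counted either way, arrays did not overlap for 15.4% of members in the double mutant, 12.8% in LFYasEMF1 and 7.69% in ult1-3, beside 15.8%, 16.1% and 9.71% of all genes.

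Same-slide differences carried the spread of single arrays. On slide 2 at 7 days, 14 of 39 genes lay more than 1 log2 unit below WT replicate 2 in the double mutant, beside 15.6% of all genes. They were CYCA2;1, CYCD3;1, 6 B cyclins, KRP1, KRP3, KRP6, KRP7, E2FA and E2FB. The WT replicates themselves differed by more than 1 at 7 days for 13 of 39, of which 6 were higher in replicate 2, beside 15.6% of all genes, and 7 were lower, beside 11% of all genes. At 15 days 3 of 39 did so, KRP7, CDKB1;2 and SIM, beside 24.5% of all genes. In LFYasEMF1, 18 of 39 were higher than WT replicate 1 at both ages, beside 31.6% of all genes, and 8 were lower at both, beside 28.9%. The 18 included 8 of the 9 B cyclins, the inhibitors KRP1, KRP2, KRP3, KRP6 and SMR1, and both E2F genes. The 8 included 5 of the 7 D cyclins.

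The double mutant against LFYasEMF1 sets both changes together beside the antisense alone. No member passed, where 0.918% of all genes did, and 11 of 39 had an unadjusted p under 0.05, of which 7 were B cyclins, beside 19.5% of all genes. The median was -0.60, with 32 of 39 lower. Arrays did not overlap for 26 of 39, of which 21 were lower, beside 44.7% of all genes either way and 21.2% lower. These 2 genotypes share no slide, and with slide as a term the median was -0.26. It was -0.29 without the double mutant array at 7 days and -0.91 without that at 15 days. Slide and genotype cannot be fully told apart here. Across slides, the 6 arrays of slides 2 and 3 lay apart from the 4 arrays of slide 1 for 11 of 39 genes, 10 of them lower, beside 10.4% of all genes either way and 6% lower. For the double mutant against ult1-3, which lie on the same slides, 0 of 39 passed, where 0.37% of all genes did, and 0 had an unadjusted p under 0.05, beside 3.52% of all genes. Arrays did not overlap for CYCD1;1, KRP4 and KRP5, beside 19.7% of all genes. The median was -0.15, and it was 0.25 without the double mutant array at 7 days and -0.52 without that at 15 days.

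In WT, most of the 39 genes had lower values at 15 than at 7 days, though none passed the test. Over the 4 WT arrays the median change was -0.52, with 32 of 39 lower, and 13 genes had both 15-day arrays below both 7-day arrays, beside 15.1% of all genes. The 15-day and 7-day arrays of WT replicate 2 lie on different slides, so age and slide cannot be told apart in that pair. None of the 39 passed, where 0% of all genes did (limma), and 0 members had an unadjusted p under 0.05, beside 3.58% of all genes. CYCB1;3 had -2.24 and -3.17 at 15 days, against -1.03 and -2.11 at 7 days, a change of -1.13 ± 0.61 with an adjusted p of 1. All 5 kinases and all 7 D cyclins were lower at 15 days in this fit. Root and shoot meristem markers were mostly lower with age as well, while other tissue lists were mixed. In WT the median was -0.71 over 7 root markers, with 7 of 7 lower, and -0.55 over 8 shoot meristem markers, with 7 of 8 lower, and none of them passed. Of the shoot meristem markers, WUS, CLV3 and UFO were not well above background on every array, WUS on only 1. Over all 10 arrays 3 of 7 root markers and 1 of 8 shoot meristem markers passed as lower, with medians of -0.57 and -0.32. In WT 4 of 6 stomatal lineage, 3 of 5 green leaf, 2 of 4 trichome and 3 of 7 floral organ markers were lower. Over all 10 arrays these counts were 1 of 6, 5 of 5, 2 of 4 and 0 of 7, and 1 floral organ marker passed as higher. GL3 of the trichome list and some floral organ genes were not well above background on every array. The part of these tissues in the cell cycle values was not tested.

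Over all 10 arrays, with genotype as a term, the median was -0.15, with 23 of 39 lower (median -0.41 with slide as a further term). None of the 39 passed, where 8.25% of all genes did, and 9 had an unadjusted p under 0.05, beside 26.5% of all genes. CYCD3;3 came nearest, at -0.54 ± 0.16 with an adjusted p of 0.0787 in limma. CDKB1;1, which acts before mitosis and in stomatal divisions, had -1.27 and -1.30 at 15 days in the double mutant and LFYasEMF1, -1.30 in ult1-3 and -1.29 and -2.002 in WT. At 7 days it had -1.05, -0.44, -1.15, -0.56 and -0.92 in the same order. All 5 arrays at 15 days lay below all 5 at 7 days, the only member for which this held, beside 8.66% of all genes. The change was -0.61 ± 0.23 with an adjusted p of 0.139 in limma. KRP1 passed only without WT replicate 2 at 7 days (0.98, adjusted p 0.0396 in limma), and SIM only without WT replicate 1 at 15 days (-0.98, adjusted p 0.0431). The sign was the same in all 5 pairs of arrays for 11 genes, beside 31.3% of all genes, 15.6% lower and 15.7% higher. Of the 11, CYCA3;2, CYCB1;4, CYCD2;1, CYCD3;3, CDKA;1, CDKB1;1, CDKB1;2 and KRP2 were lower at 15 days, and KRP4, KRP6 and E2FB were higher.

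**Figure D4:**
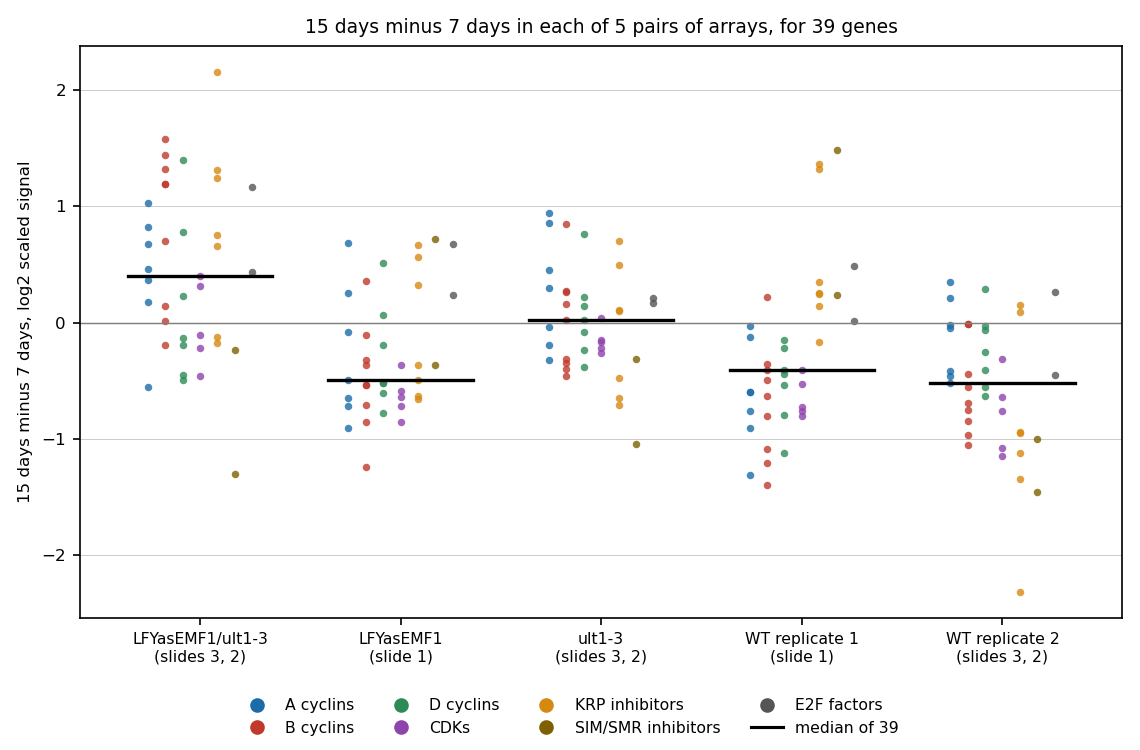
Each point is 1 of 39 genes, placed by its log2 scaled signal at 15 days minus that at 7 days in each of 5 pairs of arrays, with colour for role and a black line at the median. The median is 0.40 in the double mutant, -0.49 in LFYasEMF1, 0.02 in ult1-3, and -0.41 and -0.52 in the WT replicates.

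In the double mutant, 26 of 39 genes had higher values at 15 than at 7 days (median 0.40), against 11 and 6 of 39 in WT replicates 1 and 2. For the double mutant, ult1-3 and WT replicate 2, the 15-day arrays lie on slide 3 and the 7-day arrays on slide 2. Age and slide cannot be told apart in those pairs. Only LFYasEMF1 and WT replicate 1 had both ages on slide 1. Among B cyclins the median was 1.19 in the double mutant, against -0.63 and -0.70 in the WT replicates. The difference of age changes from WT was positive for 35 of 39 genes, with a median of 0.86, beside 0.06 over all genes. No member passed this test, where 0% of all genes did (limma), and 0 had an unadjusted p under 0.05, beside 2.12% of all genes. CYCB2;2 had the largest difference, 2.00 ± 0.86 with an adjusted p of 1. The same difference had a median of 0.48 in ult1-3, positive for 32 of 39, and of 0.19 in LFYasEMF1, positive for 26 of 39. The median in LFYasEMF1 was -0.10 without WT replicate 1 at 7 days and -0.06 without WT replicate 2 at 15 days. Neither comparison gave a call for any member, where 0% of all genes did in each, and 0 members had an unadjusted p under 0.05, beside 0.798% of all genes for ult1-3 and 1.67% for LFYasEMF1. All 3 comparisons share the WT arrays, and each rests on 1 array of its mutant genotype at each age.

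Other genes of the cell cycle, a list of 54 that covers replication licensing, the anaphase-promoting complex, cytokinesis and further regulators, gave 0 calls in any of the 10 comparisons, in which 0% to 8.25% of all genes were called. The median was -0.31 for the double mutant against WT, with 40 of 54 lower and 10 at an unadjusted p under 0.05, beside 15.8% of all genes. On slide 2 at 7 days 49 of 54 were lower in the double mutant than in WT replicate 2 (median -0.82), and on slide 3 at 15 days 27 of 54 were (median -0.02). FZR3, an activator of the anaphase-promoting complex, had -2.79 and -3.90 in the double mutant and -2.51 and -3.65 in ult1-3. It had -1.19 and -1.11 in LFYasEMF1 and -1.82, -1.95, -1.57 and -2.36 in WT. Both genotypes with ult1-3 lay below all other arrays. It differed by -2.20 ± 0.43 between the double mutant and LFYasEMF1, with an adjusted p of 0.0677 in limma. SMR7, a CDK inhibitor of the SIM family, was 2.43 ± 0.53 higher in the double mutant than in LFYasEMF1, with an adjusted p of 0.0828 in limma. These genotypes share no slide. SMR7 differed from WT replicate 2 by 0.96 at 15 days and 0.57 at 7 days in the double mutant. In LFYasEMF1 it differed from WT replicate 1 by -1.72 and -0.58. WT replicate 2 minus replicate 1 was -0.59 at 15 days and 1.62 at 7 days. PLE, a cytokinesis gene, was 1.67 ± 0.51 higher in LFYasEMF1 than in WT, with an adjusted p of 0.223 in limma. MCM6, part of the replicative helicase, had -2.94 and -5.30 in the double mutant, against -3.34, -2.01, -3.41 and -1.99 in WT.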

How the data were processed

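The deposited array tables give a background-subtracted processed signal per spot, an intensity on a linear scale, with no normalization between arrays. The software was, per the file headers, Agilent's Feature Extraction, version 10.7.1.1. The authors' value table, used only as an alternative, is also a linear intensity (column medians between 966.71 and 970.13). All its columns share their lowest and highest values, and its normalization and settings are not given in the sources used here.

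Outlier spots were dropped. Each deposited intensity was divided by the 75th percentile of its array, then log2 was taken. Probes had to be well above background on at least 1 array, and the brightest probe stood for a gene. Of 43603 probes, 34340 had a locus, through a TAIR10.1 table used for names only. No spot was saturated. The number of arrays limits the precision.

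Tests used limma 3.58.1 in R 4.3.3 with Benjamini-Hochberg adjustment over all genes. Genotype and age were fitted additively to 10 arrays (5 residual degrees of freedom), so differences in age change between genotypes count as residual spread. WT age was fitted to 4 arrays and age-change differences to 8 group means (2 each), so a mutant's lone array was assumed to vary as WT arrays do. The code was tested on simulated data. Members and lists were chosen with earlier results of these data known. By rule, members past the threshold, the largest change in each role group and the 3 largest changes of the wider cell cycle list in a comparison could be named. From these a selection is printed, and members named for single arrays or for arrays that do not overlap were chosen after their values were seen. Alternatives were slide, normalization, background correction, the filter on dim probes, probe choice, group means, a WT replicate block and leaving out each array.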

Additional observations from a re-analysis of the deposited data

How the results depend on the processing

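The count of members past the threshold was 0 in 163 of 166 repeats and 1 in the other 3, all without 1 WT array. These were CYCB2;3 in the double mutant against LFYasEMF1 without WT replicate 1 at 7 days (adjusted p 0.0455 in limma), KRP1 for age without WT replicate 2 at 7 days (0.98, adjusted p 0.0396), and SIM for age without WT replicate 1 at 15 days (-0.98, adjusted p 0.0431). Single arrays left out thus gave 0 to 1 for both comparisons. Of 1660 repeats of named changes, 1630 kept sign and side of the threshold, 6 passed it and 24 turned sign. Besides CYCB2;3 and SIM, those past it were SMR7 (-1.40 for age, -1.77 for LFYasEMF1 against WT, 2.43 for the double mutant against LFYasEMF1, all without WT replicate 1 at 7 days) and TES (1.04 for age without WT replicate 1 at 15 days).

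With slide as a term and within slides, KRP7 was 0.25 for LFYasEMF1 and -0.80 for ult1-3 against WT, both of opposite sign. The slide term also turned it for the double mutant against LFYasEMF1 (-1.31). Leaving out 1 array gave ranges that cross 0 for KRP3 in WT age (-2.28 to 0.22), KRP6 in the double mutant against WT (-1.39 to 0.14), and KRP7 (-0.053 to 1.25) and E2FA (-0.29 to 0.057) in ult1-3 against WT. The double mutant against ult1-3 did so for SIM (-0.17 to 0.47), CYCA2;4 (-0.76 to 0.17), CYCB2;3 (-1.29 to 0.17) and CYCD3;1 (-1.06 to 0.20). The age-change difference of LFYasEMF1 did so for CYCB2;3 (-0.40 to 1.29), CDKB1;2 (-0.52 to 0.91), KRP3 (-0.72 to 1.78), SMR1 (-0.54 to 1.51) and CKS1 (-1.12 to 0.050), and that of ult1-3 for SMR1 (-1.57 to 0.47), KRP7 (-1.20 to 2.18) and E2FA (-0.031 to 0.80). The cause was not tested.

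Leaving out the 15-day or the 7-day double mutant array gave member medians of -0.65 or -0.02 against WT, -0.91 or -0.29 against LFYasEMF1 and -0.52 or 0.25 against ult1-3. That of the age-change difference in LFYasEMF1 was -0.10 without WT replicate 1 at 7 days and -0.06 without WT replicate 2 at 15 days. For age it was -0.41 with slide as a term.

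Over all genes, for age, 1851 became 854 with slide as a term, 1035 with normexp (on median signals), 0 within slides and 0 on the 8 group means, and ran from 9 (without either ult1-3 array) to 2599 with 1 array left out. For LFYasEMF1 against WT, 376 became 153 on the group means and ran from 181 to 559. For ult1-3 against WT, 14 became 8 with slide, 5 within slides, 3 with normexp, 7 with the stricter filter and 5 on the group means, and ran from 5 to 17. For the double mutant against WT, 178 became 326, 77 and 64 with slide, normexp and group means, and ran from 116 to 229. Against LFYasEMF1, 206 became 67, 93 and 25, and ran from 46 to 300. Against ult1-3, 83 became 36 with normexp and 20 on the group means, and ran from 22 to 73.

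Deviations of same-numbered WT replicates correlated at 0.35 over 22386 genes, but with 2 pairs and no labelled shared source the numbers were not taken as pairs. With the replicate number as a block, 0 members and 235 of all genes passed for WT age, against 0 and 0 without it (0 to 40 of all genes with 1 array left out). That fit has 1 residual degree of freedom, and limma gave all genes the same variance (SE 0.62), so the 235 reflect the size of the change, not each gene's own spread. Slide could not be fitted for WT age or age-change differences, and no slide holds both the double mutant and LFYasEMF1.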
